A study of Arabidopsis thaliana with 8 samples.

Results

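The 43 genes described here are carried by the chloroplast genome of Arabidopsis thaliana and encode proteins of the photosynthetic apparatus. They were taken as the probe sets that the platform annotation pairs with 1 chloroplast gene whose symbol starts with psa, psb, pet, ndh or rbc, or is atpA, atpB, atpE, atpF, atpH or atpI. They make up 43 of the 22746 probe sets of the array besides its controls and 43 of the 13350 genes that are the only symbol of a probe set. In the RefSeq gene table of TAIR10.1 all 43 lie on the plastid genome, and each has 1 probe set. By complex they are 15 genes of photosystem II, 5 of photosystem I, 6 of the cytochrome b6f complex, 6 of the ATP synthase, 10 of the NDH complex and rbcL of Rubisco. The gene ndhB, whose probe set is paired with both of its copies, is not among them.

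Whole rosettes without stem and flowers were profiled on 8 ATH1 arrays, a short oligonucleotide array of Arabidopsis genes, and each array held the RNA of 1 sample. The Col-0 arrays (n = 2) held the reference accession and have titles ending in L and S, which the labels do not explain. The remaining 6 arrays each held a different line in which T-DNA disrupts a WRKY gene, named KO-02, KO-07, KO-30, KO-40, KO-54 and KO-56. The labels do not say which gene is disrupted, whether the lines are homozygous or how many plants were pooled. All plants were 35 days old and had just begun to bolt. They grew in a chamber at 70% humidity with 22 °C by day and 19 °C by night, in a substrate that held the insecticide imidacloprid and a slow-release fertiliser. The labels give 14 h of light and 8 h of dark, which do not add up to a full day.

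Photosystem II takes electrons from water and passes them through plastoquinone to the cytochrome b6f complex, which hands them on to photosystem I. Proton movement along this chain drives the ATP synthase, Rubisco fixes carbon dioxide, and the NDH complex returns electrons from ferredoxin to plastoquinone. The chloroplast genome keeps the genes of the core subunits, mostly in clusters that are transcribed together from a shared promoter and then cut into shorter RNAs, while nuclear genes supply the remaining subunits. In leaves these transcripts come from many genome copies per cell, and their loss accompanies chloroplast breakdown in leaf senescence. The series asks about early senescence of leaves in mutants of WRKY genes, which encode transcription factors of plants.

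The deposited values are MAS5 signals, which summarise the probe pairs of a probe set on a linear scale, and array medians ran from 35.96 to 39.15. Signals of different probe sets depend on their probes and are not set against each other as transcript levels. Differences are given as log2 of the signal plus 5, with positive values where the first-named sample is higher, and were tested with limma over the 15922 probe sets past a filter on dim values. A gene counts as called at a Benjamini-Hochberg adjusted p under 0.05 over all of these. All 43 genes passed the filter. The leaf markers RCA, LHCB4.1, LHCB4.2 and PRK lay above the array median on all 8 arrays, and the 3 pollen and anther markers with a named probe set lay below it on every array. In whole rosettes, fewer cells of a type and less RNA per cell cannot be told apart. Nothing in the labels says that plants of different arrays were grown separately, and no line has a second array. The spread behind the p-values thus mixes differences between lines with variation that may be technical, which cannot be told apart.

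RNA quality differed between the arrays. For actin, the signal of the control probes at the 3' end over that at the 5' end, a ratio that is high in degraded RNA, came to 29.5 in KO-54 and 15.4 in KO-30. It ran from 8.41 to 11.97 on the other 6 arrays. The same ratio for GAPDH came to 2.46 in KO-54 and 1.62 in KO-30, with 1.21 to 1.44 elsewhere. For ubiquitin it did not set these arrays apart, with 2.74 in KO-54, 2.49 in KO-30 and 2.08 to 2.68 elsewhere. Both arrays hold the results described below, and the part of RNA quality in those results was not tested.

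The mean signals of the 43 genes over the 8 arrays ran from 14.7 for ndhF, a membrane subunit of NDH, to 4347 for atpB, the beta subunit of the ATP synthase. On every array 40 of the 43 lay above the array median. The SD of the log2 values over the 8 arrays had a median of 0.21 for these genes and 0.18 for all probe sets past the filter. It was smallest for ndhC, at 0.085, and largest for psaA, at 0.78. Without KO-54 the SD of psaA was 0.18, so the spread of this gene lay in 1 array. The map of differences from Col-0 shows most of the strong values in the column of that array.

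**Figure D1:**
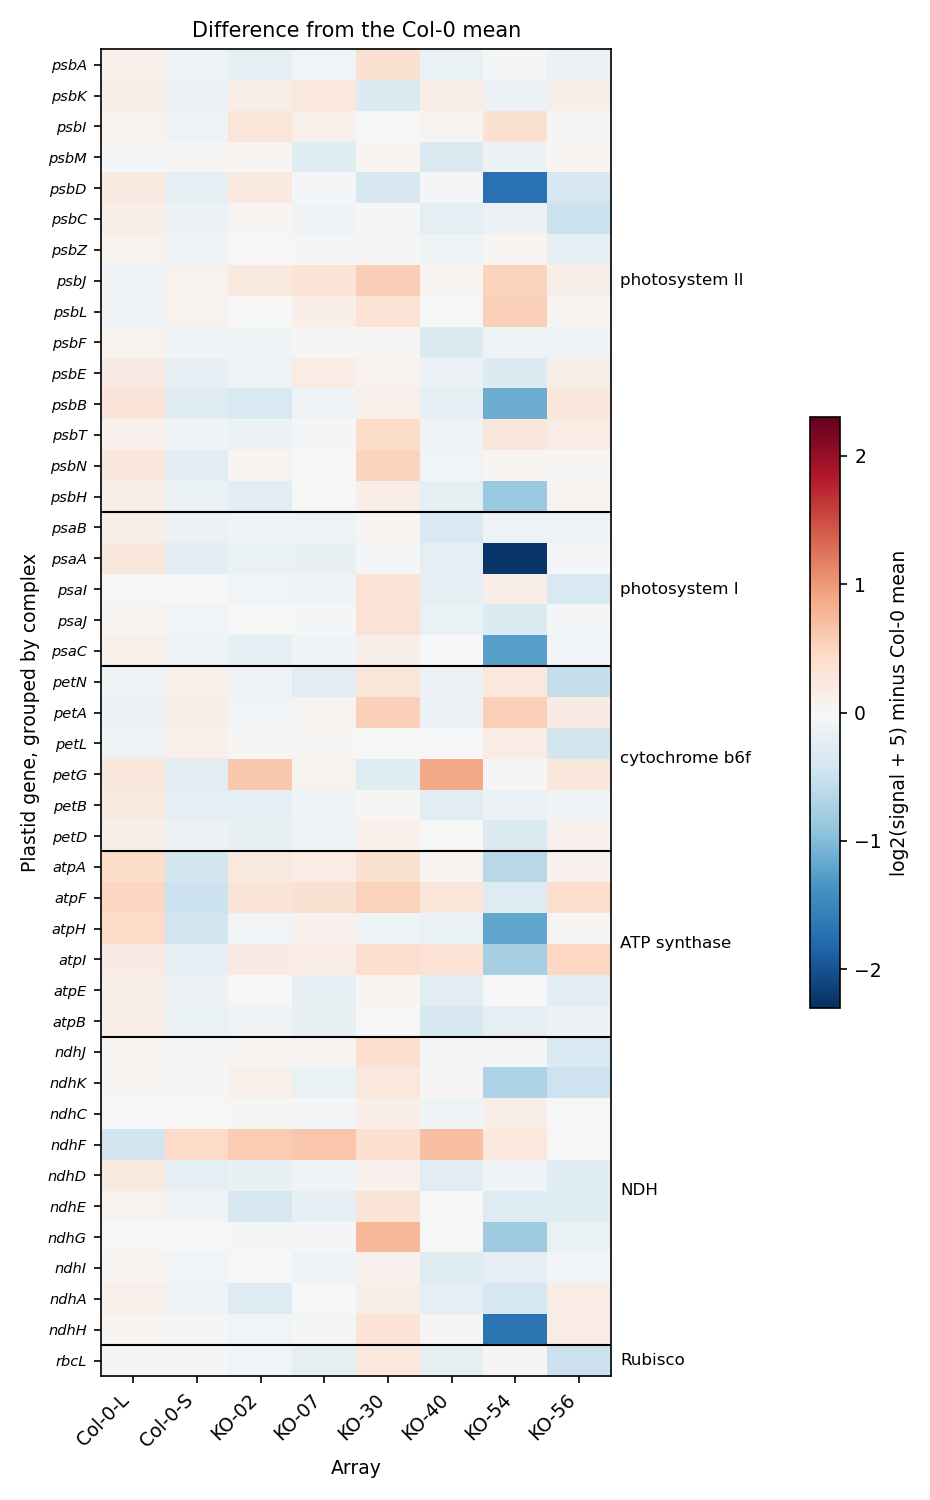
Difference of each array from the mean of the Col-0 arrays in log2(signal + 5), with arrays in columns and the 43 plastid genes in rows, grouped by complex. The darkest cells are psaA (-2.24), psbD (-1.72) and ndhH (-1.67) in KO-54.

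The lines together did not separate from Col-0 in these genes. limma called 0 of the 43 genes, as it called 0 of all 15922 probe sets (0%). At an unadjusted p under 0.05 there were 0 of the 43 genes, against 1.61% of all probe sets lower in the lines and 2.11% higher. With trended and robust variances 0 of the 43 genes were called. Log2 differences were negative for 29 of the 43 genes (background 52.7%), with a median of -0.07 against -0.01 for all probe sets. That count was 18 of 43 without Col-0-L, with a median of 0.03, and 34 without Col-0-S, with a median of -0.16. After quantile normalization it was 21, with a median of 0.01. No gene had all 6 lines below both Col-0 arrays, and none had all 6 above both (background 3.1% and 3.13%).

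The difference furthest above 0 belonged to ndhF, the dimmest of the genes. Its signals in Col-0-L and Col-0-S were 6.28 and 15.8, and 17.96, 18.8, 14.9, 19.9, 13.1 and 10.5 in KO-02, KO-07, KO-30, KO-40, KO-54 and KO-56. Only the values of 3 lines lay above both Col-0 arrays, and the groups overlapped. The log2 difference was 0.43 ± 0.24 (SE; limma adjusted p = 0.989), and it was -0.02 without Col-0-L, the array with the lowest value. The next was psbJ, a small subunit of photosystem II, with 661 and 744 in Col-0 and from 734 to 1043 in the lines (median 849). In 5 of 6 lines it exceeded both Col-0 values, with a log2 difference of 0.30 ± 0.15 (SE; limma adjusted p = 0.989).

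In KO-54 the transcripts of psaA, of photosystem I, and ndhH, of NDH, fell to 20.7% and 28.3% of the Col-0 mean. limma called 2 of the 43 genes against Col-0, both lower, where the background was 0.0628% of all probe sets. Against the other 5 lines, a contrast that does not use the Col-0 level, it called 3, all lower (background 0.119%). Without the filter 0 of the 43 were called in either contrast, and psaA and ndhH had an adjusted p of 0.0569 against the other lines. A log2 difference from Col-0 below -0.5 was found for 11 of the 43 genes (background 6.53%), and one above 0.5 for 3 (background 5.92%). The median over all 43 was -0.13, against -0.01 for all probe sets. It was -0.01 without Col-0-L and -0.01 after quantile normalization, and -0.26 without Col-0-S. Against the other lines 12 lay below -0.5 (background 4.48%). A few genes were thus far down and the others nearer to Col-0. This was not particular to the 43 genes. Of the 26 other plastid genes, described at the end, 6 lay below -0.5 and 3 above 0.5 against Col-0, and the polymerase gene rpoB had -2.37. The actin ratio of 29.5 stood beside all of these values.

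The gene psaA encodes a reaction centre protein of photosystem I. Its signal was 3234 in Col-0-L, 2259 in Col-0-S, 2422 in KO-02, 2402 in KO-07, 2611 in KO-30, 2299 in KO-40, 567 in KO-54 and 2637 in KO-56. The KO-54 value was 20.7% of the Col-0 mean and lay far below all other arrays, which overlapped among themselves. The log2 difference from Col-0 was -2.24 ± 0.22 (SE; limma adjusted p = 0.0192), and from the other 5 lines it was -2.11 ± 0.19 (adjusted p = 0.0109). The call against Col-0 was lost without Col-0-L, KO-02, KO-07 or KO-40 and without the filter, at adjusted p from 0.0517 to 0.102. The partner reaction centre gene psaB, next in the same transcription unit, did not share this value. It had 4160 and 3421 in Col-0, 3473 in KO-54 and from 2959 to 3896 in the other lines, a log2 difference of -0.12 ± 0.20 in KO-54.

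The gene psaC encodes the iron-sulphur protein that passes electrons to ferredoxin. Its signal was 1098 and 924 in Col-0-L and Col-0-S, 860.4 in KO-02, 954 in KO-07, 1102 in KO-30, 1005 in KO-40, 422 in KO-54 and 959 in KO-56. KO-54 was again apart from 7 arrays that overlapped. The log2 difference was -1.25 ± 0.19 (SE) from Col-0, which limma did not call (adjusted p = 0.0798), and -1.20 ± 0.17 from the other 5 lines, which it called narrowly (adjusted p = 0.0494). That call was lost in 9 of 14 alternative settings, with adjusted p up to 0.172. The small subunits psaI and psaJ had log2 differences of 0.15 and -0.31 in KO-54, so that 2 of the 5 photosystem I genes lay below -0.5.

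Among NDH genes, ndhH, a subunit of the arm that lies in the stroma, had signals of 117 in Col-0-L, 111 in Col-0-S, 109 in KO-02, 109.7 in KO-07, 142 in KO-30, 117 in KO-40, 32.3 in KO-54 and 128 in KO-56. KO-54 had 28.3% of the Col-0 mean, and the other 7 arrays ran from 109 to 142. The log2 difference was -1.67 ± 0.19 (SE; limma adjusted p = 0.0342) from Col-0 and -1.75 ± 0.17 (adjusted p = 0.0109) from the other lines. The call against Col-0 was lost without either Col-0 array, KO-02, KO-07 or KO-40 and without the filter, at adjusted p from 0.0606 to 0.214. The membrane subunit ndhG and the stromal arm subunit ndhK had log2 differences of -0.81 and -0.70 in KO-54 and were not called. The other 7 NDH genes lay between -0.40 for ndhA and 0.24 for ndhF.

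In photosystem II the gene furthest down in KO-54 was psbD, which encodes the D2 reaction centre protein. Its signal was 1751 in Col-0-L, 1300.3 in Col-0-S, 1768 in KO-02, 1462 in KO-07, 1161 in KO-30, 1481 in KO-40, 455 in KO-54 and 1148 in KO-56. The remaining lines overlapped with Col-0, and KO-54 did not. The log2 difference was -1.72 ± 0.28 (SE) from Col-0 (limma adjusted p = 0.125) and -1.60 ± 0.25 from the other lines (0.0847), so neither passed.

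The inner antenna gene psbB (CP47) had 1286 and 855 in Col-0, 470.1 in KO-54 and from 817 to 1250.3 in the other lines, a log2 difference of -1.15 ± 0.30 (limma adjusted p = 0.296). The phosphoprotein gene psbH had -0.85 ± 0.22. The other 12 photosystem II genes lay between -0.31 for psbE and 0.55 for psbL. The latter, a small subunit, was the gene with the highest difference in KO-54. It had 337 and 375 in Col-0, 524 in KO-54 and from 356 to 450.3 in the other lines, and was not called (adjusted p = 0.391). The D1 gene psbA had 2395 and 2054 in Col-0 and 2182 in KO-54.

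**Figure D2:**
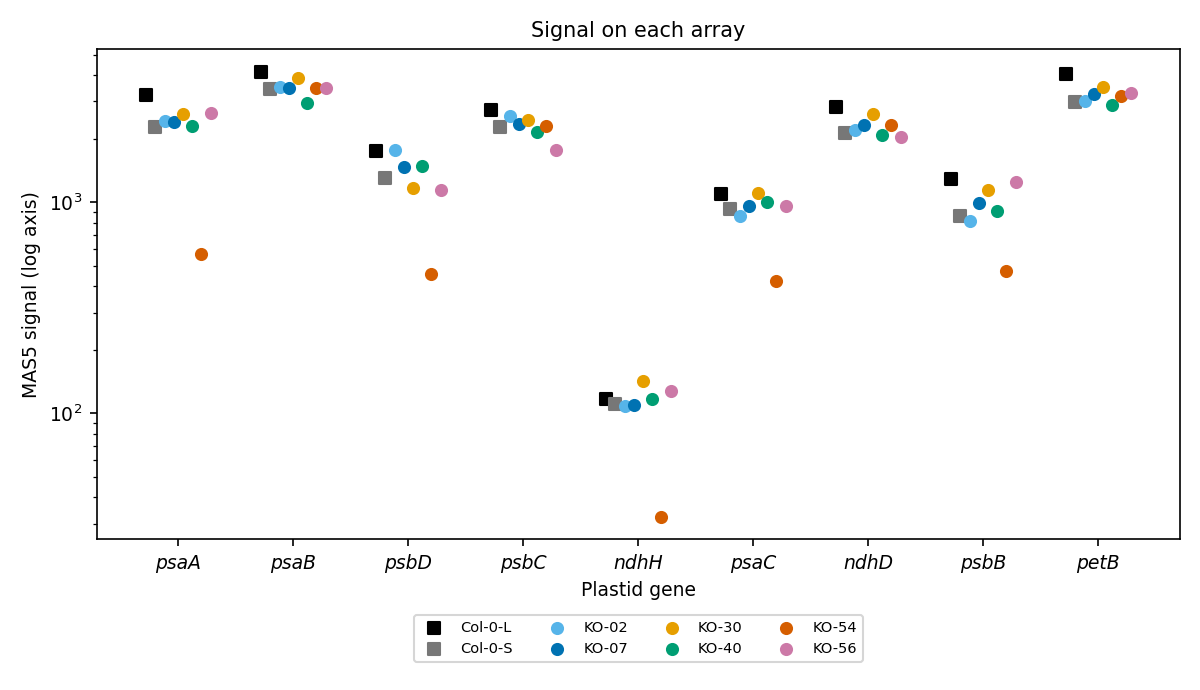
MAS5 signal on a log axis for 9 plastid genes, with 1 point per array (squares for Col-0, circles for the lines). KO-54 lies apart for psaA (567), psbD (455), ndhH (32.3), psaC (422) and psbB (470.1), and among the other arrays for psaB, psbC, ndhD and petB.

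Genes of the same transcription unit differed from each other in KO-54. The 43 genes fall into 11 units with several of them and 6 with 1, and the order of each unit matched the order of neighbours in the gene table. The gap between the highest and the lowest log2 difference within a unit was over 1 in 4 of 11 units in KO-54, in 1 of 11 in KO-40 and in 0 of 11 in each other line. KO-54 had the widest gap of the 6 lines in 9 of the 11 units. Its median gap was 0.86, against medians from 0.13 to 0.40 in the other lines. Over all probe sets KO-54 also had the largest shares of the 6 lines below -0.5 (6.53%) and above 0.5 (5.92%) against Col-0. Gaps in groups of other genes were not computed.

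The gap was 2.12 in the unit of psaA and psaB. In the unit of psbD, psbC and psbZ it was 1.78: the CP43 gene psbC had -0.13 and the small subunit gene psbZ had 0.06. The psbZ signal was 1572 and 1412 in Col-0 and from 1276 to 1549.9 in the lines, with KO-54 the highest of these lines. The genes psbD and psbC overlap by 53 bases in the gene table, yet their probe sets gave different values.

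In the unit that runs from psbB to petD the gap was 1.41. There psbB and psbH were down, while the small subunit gene psbT between them had 0.26, with 566 and 489.9 in Col-0, 632 in KO-54 and from 479 to 710.5 in the other lines. Its cytochrome b6f genes petB and petD had -0.13 and -0.33. The gene psbN, known to lie on the opposite strand within this unit, had 0.05.

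The unit of ndhH, ndhA, ndhI, ndhG, ndhE, psaC and ndhD had values of -1.67, -0.40, -0.19, -0.81, -0.29, -1.25 and -0.08 in KO-54, in order of transcription. The lowest values belonged to the first and the sixth gene, and the last gene was near Col-0. This gene, ndhD, encodes a membrane subunit, and had 2840.1 and 2127 in Col-0, 2329.7 in KO-54 and from 2026 to 2630.4 in the other lines.

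The genes were then split by place in the unit, a split made after the values were seen. Place was counted among the photosynthesis genes described here, without other plastid genes. A leading gene is thus the first of these and need not be the first gene transcribed. The leading genes of 11 units had a median of -0.31 in KO-54, and 5 of 11 lay below -0.5. Whether the first gene transcribed is more often down was not tested. Of the 26 later genes 6 lay below -0.5 (median -0.13), and of the 6 genes alone in their unit 0 did (median 0.04). By length, 5 of the 16 genes of at least 1000 bases and 6 of the 27 shorter ones lay below -0.5.

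**Figure D3:**
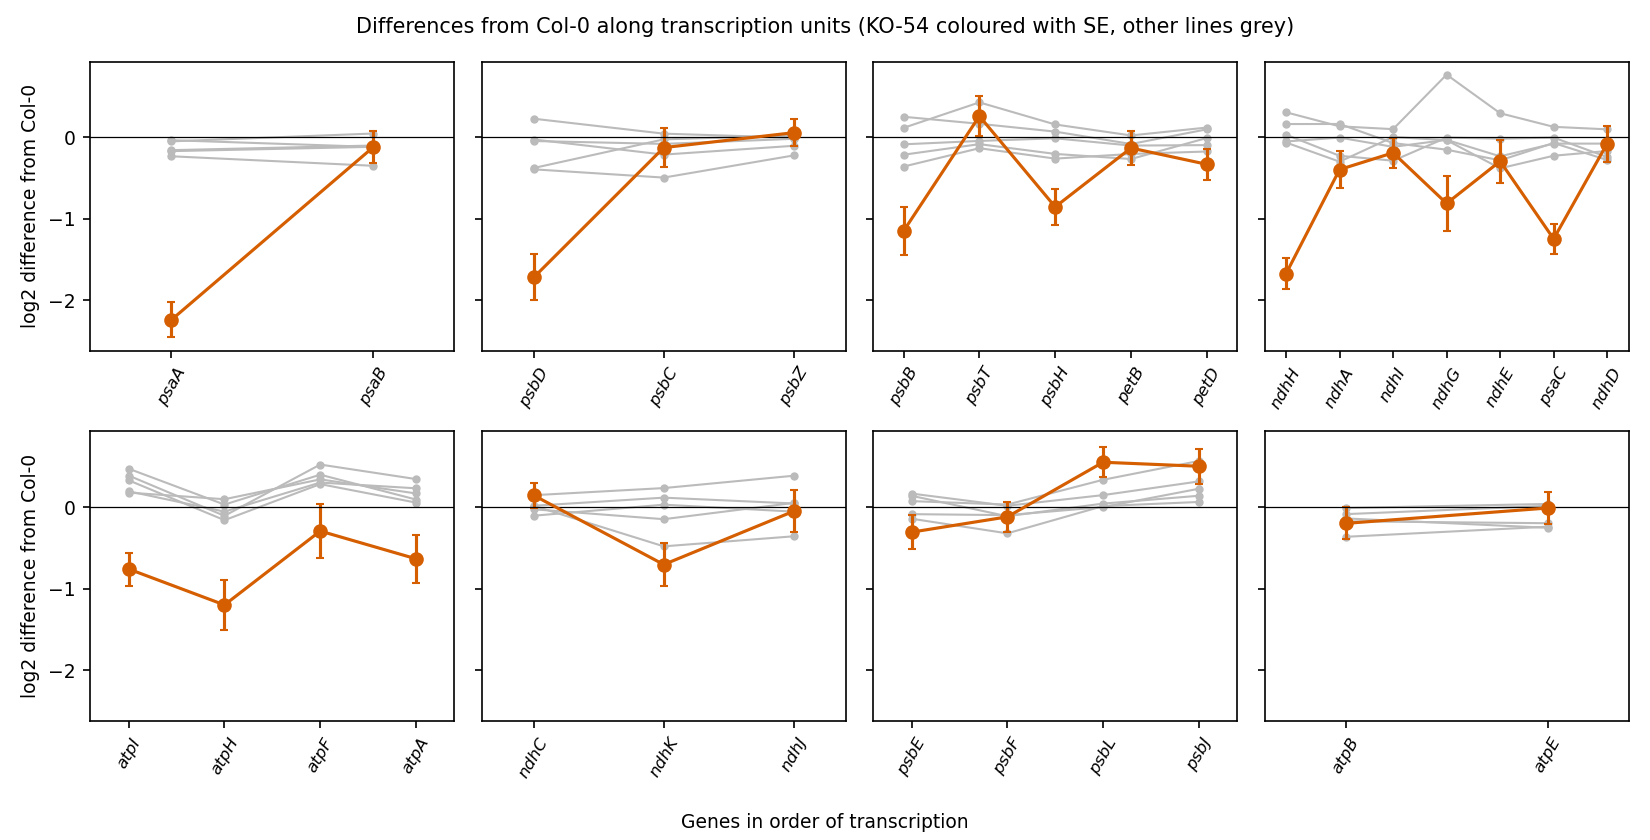
Log2 difference from Col-0 (vertical axis) for genes in order of transcription in 8 units, for KO-54 with the SE of the limma fit and for the other 5 lines in grey. In KO-54 psaA stands at -2.24 beside psaB at -0.12, and psbD at -1.72 beside psbC at -0.13.

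The ATP synthase was the complex in which the Col-0 arrays themselves differed most. All 6 of its genes were higher in Col-0-L than in Col-0-S, with a median of 0.61, while the median was 0.22 for all 43 genes and 0.02 for all probe sets. The gene atpF, subunit b of the membrane part, had 2466 in Col-0-L, 1238 in Col-0-S, 2157 in KO-02, 2217 in KO-07, 2515 in KO-30, 2129 in KO-40, 1426 in KO-54 and 2307 in KO-56. Col-0-S and KO-54 were the low arrays, and the other 6 overlapped. The difference between the Col-0 arrays was 0.99 ± 0.34 (SE; limma adjusted p = 1). For atpA, the alpha subunit, it was 0.85 and for atpH, the subunit of the rotor ring, 0.89. Neither passed.

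In the unit of atpI, atpH, atpF and atpA, 3 genes were further from the other lines than from Col-0 in KO-54, and atpH was not. The gene atpI, subunit a of the membrane part, had 216 and 166 in Col-0, 218, 215, 249.6, 239.6 and 265 in KO-02, KO-07, KO-30, KO-40 and KO-56, and 110.0 in KO-54. KO-54 was below all 7 arrays, and 4 lines lay above both Col-0 arrays. The log2 difference of KO-54 was -0.76 ± 0.20 from Col-0 (limma adjusted p = 0.296) and -1.07 ± 0.18 from the other lines (0.0973). For atpH it was -1.20 and -1.16, for atpA -0.63 and -0.81 and for atpF -0.29 and -0.66 in the same order, and none was called. The separate unit of atpB and atpE, for the beta and epsilon subunits, had -0.20 and -0.01 against Col-0.

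Across all 43 genes Col-0-L was higher than Col-0-S in 35, and 8 were lower (background 47.2% lower). limma called 0 of them and 0% of all probe sets, with 1 higher (atpF) and 1 lower (ndhF) at an unadjusted p under 0.05 (background 1.81% and 1.46%). With trended and robust variances it also called 0 of the 43. After quantile normalization the count of lower genes was 13 of 43 and the median 0.08. The nuclear photosynthesis genes, 9 with a named probe set, had a median of 0.28 in the same comparison, and the 26 other plastid genes had -0.07.

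**Figure D4:**
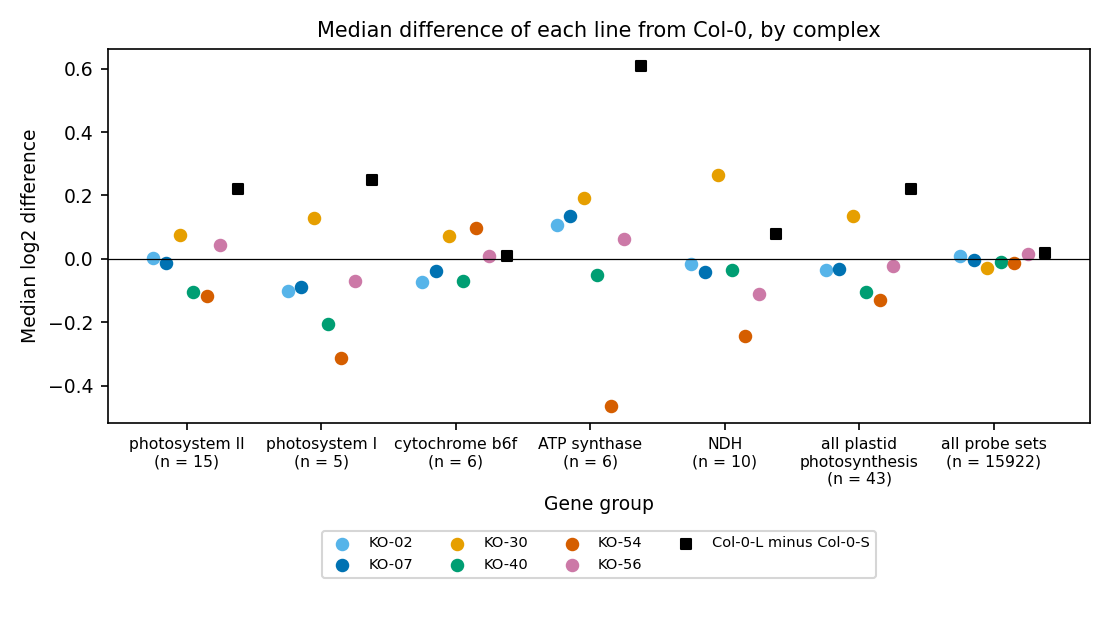
Median log2 difference of each line from Col-0, and of Col-0-L from Col-0-S (black squares), for 5 complexes, all 43 plastid photosynthesis genes and all 15922 probe sets. The ATP synthase genes stand at -0.46 in KO-54 and at 0.61 between the Col-0 arrays, while all probe sets stay near 0.

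In KO-30 the values of these genes tended upward. Of the 43 genes 34 were higher than in Col-0 (background 54.5% lower, and 9 of 43 here), with a median of 0.13 against -0.03 for all probe sets. Against the other 5 lines 39 were higher and 4 lower (background 53.7% lower), with a median of 0.29. The 26 other plastid genes tended upward as well. Of these, 22 were higher and 4 lower than in Col-0 (median 0.27), and 23 were higher and 3 lower than in the other lines (median 0.40). limma called 0 of the 43 in either contrast, where 0.00628% of all probe sets were called in each. At an unadjusted p under 0.05, 3 were higher and 0 lower than in Col-0 (background 2.72% and 5.76%), and 8 were higher and 1 lower than in the other lines (background 5.05% and 9.18%). With trended and robust variances it also called 0 of the 43 in both contrasts. Without Col-0-S the count lower than in Col-0 was 19 of 43 (median 0.03), and without Col-0-L it was 5 (median 0.26).

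All 10 NDH genes were above Col-0 in KO-30, with a median of 0.27, and their median against the other lines was 0.37. Photosystem I genes had medians of 0.13 and 0.44 in the same order. The gene ndhG had 130.0 and 131 in Col-0, 128, 128, 130.4 and 117 in KO-02, KO-07, KO-40 and KO-56, 72.3 in KO-54 and 226 in KO-30. The values of 6 arrays were close together, with KO-30 above and KO-54 below them. The log2 difference of KO-30 was 0.77 ± 0.31 (SE; limma adjusted p = 0.561) from Col-0 and 0.98 ± 0.28 (0.199) from the other lines. The psbA transcript of the D1 protein, which is replaced continually in light, had 2816 in KO-30 and from 1917 to 2395 on the other 7 arrays, 0.46 above the other lines. The lowest difference from Col-0 in KO-30 was -0.38, for psbD. The actin ratio of 15.4, the second highest of the 8, stood beside these values.

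KO-30 had the highest signal of the 8 arrays for 17 of the 43 genes (39.5%; background 15.5%) and Col-0-L for 15 (34.9%; background 14.5%). The lowest signal was in KO-54 for 15 genes (34.9%; background 18.4%), in KO-56 for 9 (20.9%; background 12.3%) and in KO-40 for 8 (18.6%; background 12.8%). Over all probe sets KO-30 held the lowest signal most often (20.9%), but for 2 of the 43 genes. Among the 26 other plastid genes KO-30 was the highest array for 15, and among the 9 nuclear photosynthesis genes for 1.

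**Figure D5:**
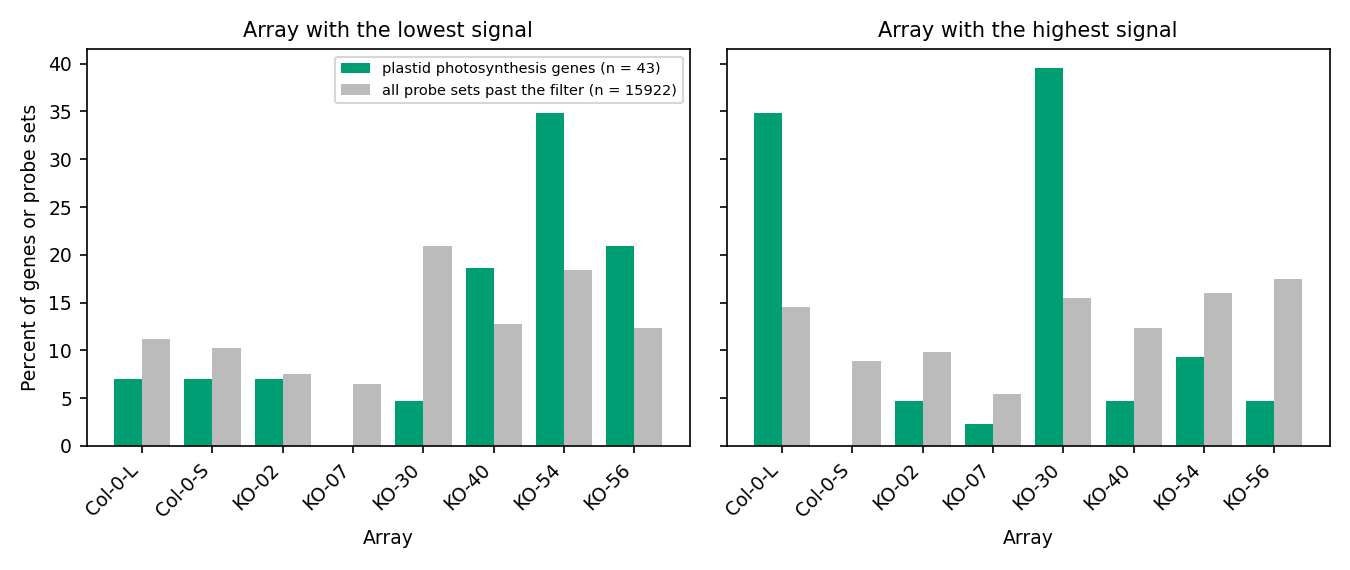
Percent of the 43 plastid photosynthesis genes (green) and of all 15922 probe sets (grey) for which each array had the lowest signal (left) or the highest (right). KO-54 was lowest for 34.9% of the plastid genes and KO-30 highest for 39.5%.

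In KO-56 the rbcL transcript, which encodes the large subunit of the carbon-fixing enzyme Rubisco, was at its lowest. It had 720.1 and 686 in Col-0, 674 in KO-02, 606 in KO-07, 830.4 in KO-30, 607 in KO-40, 715 in KO-54 and 497 in KO-56. The value of KO-56 lay below the 7 others, at a log2 difference of -0.50 ± 0.21 from Col-0 (SE; limma adjusted p = 0.879). The psbC transcript of the CP43 antenna was likewise lowest in KO-56, with 1768 against 2151 to 2733 on the other arrays (-0.49 ± 0.18; adjusted p = 0.777).

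The lowest difference in KO-56 belonged to petN, a small subunit of the cytochrome b6f complex. It had 127 and 152 in Col-0, 131 in KO-02, 117 in KO-07, 169 in KO-30, 127 in KO-40, 165 in KO-54 and 94 in KO-56, and its log2 difference was -0.54 ± 0.25. The highest was atpI, at 0.47. limma called 0 of the 43 in KO-56 (background 0.00628%), with 3 lower and 0 higher at an unadjusted p under 0.05 (background 2.56% and 2.94%). With trended and robust variances it also called 0.

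In KO-40 the petG transcript, for a small subunit of cytochrome b6f, was highest. Its signal was 183 in Col-0-L, 128 in Col-0-S, 238 in KO-02, 162 in KO-07, 125 in KO-30, 286 in KO-40, 156 in KO-54 and 183 in KO-56. Arrays of both groups were spread over this range. The log2 difference of KO-40 was 0.88 ± 0.34 (SE; limma adjusted p = 0.714), and in KO-02, where petG was also the highest, it was 0.62. The photosystem I gene psaJ of the same unit had -0.15 in KO-40, with 3071 and 2833 in Col-0, 2655 in KO-40 and 3721 in KO-30. The lowest gene in KO-40 was atpB, with 5235 and 4227 in Col-0, 3657 in KO-40 and from 4099 to 4674 in the other lines (-0.36 ± 0.18; adjusted p = 0.796).

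Of the 43 genes 31 were lower in KO-40 than in Col-0 (background 51.9%), with a median of -0.10. This median was -0.02 without Col-0-L, -0.21 without Col-0-S and 0.01 after quantile normalization. limma called 0 of them and 0% of all probe sets. At an unadjusted p under 0.05 there were 0 lower and 1 higher (background 2.72% and 3.96%), and 0 were called with trended and robust variances. The 9 nuclear photosynthesis genes had a median of -0.33 in KO-40.

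In KO-02 and KO-07 the medians over the 43 genes were -0.03 and -0.03, and 0 genes lay below -0.5 (background 2.36% and 1.95%). The lowest gene in KO-02 was ndhE, a membrane subunit of NDH, with 575 and 517 in Col-0, 418 in KO-02, 463 in KO-07, 671 in KO-30, 539 in KO-40, 444 in KO-54 and 448 in KO-56 (-0.38 ± 0.26). In KO-07 it was psbM, a small subunit of photosystem II, with 4380.4 and 4508 in Col-0, 4605 in KO-02, 3679 in KO-07, 4572 in KO-30, 3533 in KO-40, 4057 in KO-54 and 4589.6 in KO-56 (-0.27 ± 0.21). limma called 0 of the 43 and 0% of all probe sets in each of these lines, with 0 of the 43 also under trended and robust variances. At an unadjusted p under 0.05 there were 0 in either direction, against 1.31% lower and 0.973% higher of all probe sets in KO-02 and 0.936% and 0.716% in KO-07.

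Of the cytochrome b6f genes 4 of 6 were above Col-0 in KO-54, with a median of 0.10. The cytochrome f gene petA had 614 and 740.2 in Col-0, 985 in KO-54, 984 in KO-30 and from 613 to 773 in the other lines. KO-54 and KO-30 were the high arrays, with a log2 difference of 0.54 from Col-0 in each, and neither was called.

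The other 26 plastid genes with a named probe set, mostly for ribosomal proteins and the plastid RNA polymerase, had a median of -0.03 in KO-54, with 6 of 26 below -0.5 and 3 of 26 above 0.5. They held genes far down and genes up, as the 43 did. The polymerase gene rpoB had -2.37, further down than psaA at -2.24. Its signal was 5.95 in KO-54, near the 5 added before log2, and 63.1 and 41.95 in Col-0. The ribosomal protein gene rpl36, with 1.07, was at the other end. The 9 nuclear photosynthesis genes had a median of -0.13 and ran from -0.24 to 0.12, with 0 of 9 below -0.5. The 18 mitochondrial probe sets past the filter, of 22 measured, had a median of 0.02 and ran from -0.83 to 0.79. The 8 nuclear genes with symbols starting with CRR, HCF or PPR had a median of 0.06 and ran from -0.37 to 0.40. They were picked by symbol alone and are not a survey of plastid RNA processing. These differences between lists were not tested.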

How the data were processed

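Per the submitters' processing notes, the authors made the deposited intensity values, signals of 1 probe set each on a linear scale, with MAS5. No version is given there. The mean signal without the lowest and highest 2% was between 99.96 and 99.97 on every array, so the authors' scaling was kept. The labels name a standard labelling protocol and do not say how cDNA was primed, on which the signal of plastid RNA, which mostly lacks poly(A) tails, can depend. Arrays were matched to samples by column name (0 columns without a sample) and grouped by source name.

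Before log2, 5 was added to each signal (their 20th percentile after rounding), so changes of dim genes are understated. Probe sets above the 30th percentile of mean log2 signal were kept. Tests used limma 3.58.1 in R 4.3.3 (lmFit, eBayes, two-sided), over all 15922 probe sets. The lines were compared with Col-0 as a class with 6 residual degrees of freedom. Single lines were set against Col-0, and against the remaining 5 lines, in a model of 3 levels that leaves 5 residual degrees of freedom, and Col-0-L against Col-0-S in the same way. Such a single array is taken to vary as the rest do. The Col-0 arrays are common to every line's comparison with Col-0. Genes named were those called, the highest and lowest difference in each comparison, the extremes of unit gaps over 1, the highest and lowest mean signal, psbA and rbcL. Further names were picked with their values known. The genes, lists and tests were chosen with earlier results of these data known.

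The order of transcription within units and the roles of genes are textbook knowledge. On simulated data with 15922 probe sets, the test of KO-54 against Col-0 recovered 39 of 100 changes of 1 and 83 of 100 changes of 2 on the log2 scale, with 13 false calls. The simulated noise was normal and independent between probe sets, and the adjustment depends on how many changes were planted. Recovery in the measured data can therefore differ. The number of arrays limits the precision. Alternatives were pseudocounts of 1 and 21, no filter or one at the median, quantile normalization, median centring, trended and robust variances, and leaving out arrays.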

Additional observations from a re-analysis of the deposited data

Results flagged for a closer look

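Within the 6 lines, 11 of the 43 genes had a line far from the other 5, with a gap to the nearest line of over 0.625 of the whole range on the log2 scale (Dixon's criterion). Chance flags about 1 in 20 groups of unrelated values, and genes of 1 transcription unit are not unrelated. The share of all probe sets that this rule flags was not computed, so it is not known whether 11 of 43 exceeds it. Over all probe sets KO-54 was the lowest of the 8 arrays for 18.4%. KO-54 was the low array for 8 of the 11 genes. For psaA its signal was 567 against 2299 to 2637 in the other lines, for ndhH 32.3 against 109 to 142, for psaC 422 against 860.4 to 1102 and for psbD 455 against 1148 to 1768. The 4 ATP synthase genes of the unit of atpI, atpH, atpF and atpA were also low there. Their values were 110.0 for atpI (215 to 265 in the other lines), 953 for atpH (1965 to 2350), 1426 for atpF (2129 to 2515) and 1949 for atpA (3147 to 3845). Col-0-S, with 1238 for atpF, 1609.9 for atpH and 2252 for atpA, lay nearer to KO-54 than to those lines for atpF and atpA, and nearer to the lines for atpH.

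KO-30 was the high array for 2 genes: psbN, an assembly factor of photosystem II, had 55.3 against 35.5 to 39.3 in the other lines, and psbA had 2816 against 1917 to 2182. KO-56 was the low array for petL, a small subunit of cytochrome b6f, with 602 against 803 to 912.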

How the results depend on the processing

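No paired analysis was possible, because each line has 1 array and the labels link no line to a particular Col-0 array. In the class comparison, the Col-0 pair and all contrasts of the other 5 lines, 0 of the 43 genes were called in every alternative run. For KO-54 against Col-0, where 2 were called, 0 were called without the filter, where more probe sets enter the adjustment, and 4 with trended and robust variances. Leaving out 1 array gave 0 to 2: 0 without Col-0-L, KO-02, KO-07 or KO-40 and 1 without Col-0-S. For KO-54 against the other lines, where 3 were called, 0 were called without the filter, 5 with trended and robust variances, and 2 to 3 when 1 array was left out. Over all probe sets the calls in KO-54 against Col-0 were 11, and 20 with a pseudocount of 1, 7 with 21, 0 without the filter and 18 under trended, robust variances; against the other lines they were 20, with 13 at a pseudocount of 21, 0 without the filter and 38 under trended, robust variances. Leaving out 1 array gave 0 to 14 and 4 to 28 of these. KO-30 against the other lines had 1, and 20 with the filter at the median and 50 under trended, robust variances. KO-56 against Col-0 had 1, and 6 without the filter, and KO-40 had 0, and 4 with a pseudocount of 21. Apart from the larger number tested without the filter, the cause was not tested. The number of the 43 genes below -0.5 in KO-54 stayed between 10 and 13 against Col-0 and at 12 against the other lines. In KO-30 against Col-0 the count lower was 4 with median centring.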
